A study of Mus musculus with 12 samples.

Results

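The genes described here are the tubulins Tuba1a, Tuba1b, Tuba1c, Tuba4a, Tubb2a, Tubb2b, Tubb3, Tubb5 and Tubb6, with the microtubule-associated protein gene Map1b. They were taken by gene symbol from a table of array values for abdominal fat of mice that had received short hairpin RNA (shRNA) adenoviruses. Of the 10 genes, 9 had a probe set with 1 symbol, out of 23185 probe sets so named, and Tuba1b was not analysed here. The genes were chosen by name, with their measured differences between the shRNA groups already known, so those differences are given as a description, without p-values.

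All 12 animals were of the stock BKS.Cg-Dock7m +/+ Leprdb/J, which carries the db mutation of the leptin receptor gene, and were 12 weeks old per the labels. Tissue was taken 1 week after injection. Arrays were run on 3 animals of the 7 in each group, picked as representative per the labels and so not at random. The control group received 4e9 plaque-forming units (pfu) of a control shRNA virus. The LCN13 group received 2e9 pfu of LCN13 shRNA virus and 2e9 pfu of control virus, and the TSC22D4 group 2e9 pfu of TSC22D4 shRNA virus and 2e9 pfu of control virus. The combined group received the LCN13 and TSC22D4 viruses at 2e9 pfu each, without control virus. In any comparison with control, more gene-directed virus and less control virus therefore cannot be told apart. The replicate numbers below are those of the animals in the labels.

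Microtubules are hollow filaments built from dimers of an alpha- and a beta-tubulin, each encoded by several genes whose proteins are very alike and differ mostly in their C-terminal tails. Cells hold the pool of free dimers steady by degrading tubulin mRNA when it is in excess, and microtubule-associated proteins such as MAP1B stabilize the filaments. In fat cells microtubules serve as tracks for vesicles that carry glucose transporters and for lipid droplets. Mouse preadipocytes in culture lower their tubulin synthesis as they turn into fat cells.

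Promoter stretches of 3 genes are shown because Tuba1a and Map1b varied most between the groups, and because Tuba1c lies next to Tuba1a and differed the other way. In the RefSeq gene order Tuba1b, Tuba1a and Tuba1c follow each other on chromosome 15, with 0 other protein-coding genes between Tuba1a and Tuba1c. Tubb2a and Tubb2b are likewise neighbours on chromosome 13, where Map1b also lies, 444 protein-coding genes away from Tubb2a. Each stretch is the 250 bases before the gene's start in RefSeq (build GRCm38.p6), at chr15:98953502-98953751, minus strand for Tuba1a, chr15:99029641-99029890, plus strand for Tuba1c and chr13:99516603-99516852, minus strand for Map1b. Capitals mark the letters TATAA (the core of the TATA box), CCAAT (the CCAAT box) and GGGCGG (the core of the GC box) on either strand, and no marked matches overlap.
Tuba1a: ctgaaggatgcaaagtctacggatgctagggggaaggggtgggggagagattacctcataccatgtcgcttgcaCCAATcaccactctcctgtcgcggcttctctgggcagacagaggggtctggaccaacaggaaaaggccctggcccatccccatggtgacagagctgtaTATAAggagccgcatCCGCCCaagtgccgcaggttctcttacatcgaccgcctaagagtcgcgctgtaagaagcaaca
Tuba1c: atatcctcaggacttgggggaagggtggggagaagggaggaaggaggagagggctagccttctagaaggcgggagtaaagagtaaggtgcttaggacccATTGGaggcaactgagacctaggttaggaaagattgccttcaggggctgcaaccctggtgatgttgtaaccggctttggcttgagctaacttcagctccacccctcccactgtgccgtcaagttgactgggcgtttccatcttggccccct
Map1b: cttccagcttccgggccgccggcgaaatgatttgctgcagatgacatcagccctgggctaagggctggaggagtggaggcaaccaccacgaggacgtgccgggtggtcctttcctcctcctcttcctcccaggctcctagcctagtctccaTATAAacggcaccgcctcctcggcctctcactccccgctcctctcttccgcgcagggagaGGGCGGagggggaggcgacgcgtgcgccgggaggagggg
The Tuba1a stretch held all 3 motifs, with TATAA beginning 78 bases, CCAAT 176 bases and GGGCGG 63 bases before the start. The Tuba1c stretch held CCAAT on the opposite strand and neither of the others, and the Map1b stretch held TATAA and GGGCGG. Of the 10 genes, 8 had an entry in the RefSeq promoter table. Over their stretches TATAA was present in 4, CCAAT in 4 and GGGCGG in 6, against 22.8%, 33.8% and 32.7% of all 32851 promoter stretches of that length. The core of the interferon-stimulated response element was in 0 of the 8 and in 2.98% of all stretches, searched on both strands. TGACGTCA, the cAMP response element, was in Tubb2a and in 1.55% of all.

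Values are log2 signals as the authors normalized them (RMA), which ran from 5.62 to 14.4 with a median of 6.31, so a difference of 1 is a 2-fold change in signal. Levels of different probe sets cannot be set against each other. All 8 adipocyte markers checked, among them Adipoq and Plin1, lay above the table's median, and their mean per array stayed between -0.09 and 0.09 of the mean over the 12 arrays. Of the shRNA targets, Tsc22d4 lay between 7.56 and 7.88 on the 12 arrays, with no detectable drop in fat. Lcn13, listed as Obp2a, lay between 5.71 and 5.79, close to the table's lowest value, where a drop could not have been seen. LCN13 replicates 5 and 6 had the highest means over 15 markers of mesothelium, the cell layer covering abdominal organs. Single markers were not all highest there, as Cldn15 read 9.69 and 9.65 against 9.85 and 9.82 in control replicates 1 and 3. The limma fit given below called 0 of the 15 with LCN13 shRNA against control. On LCN13 replicates 5 and 6 all 15 were above their median in the other groups, against 4 of 15 in LCN13 replicate 8. The main differences that rest on these arrays are given with and without them. In whole tissue, more cells of a type and more RNA per cell cannot be told apart.

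Tuba1a, an alpha-tubulin abundant in neurons and present in many other cells, had higher signal in fat of both groups that received TSC22D4 shRNA. Its log2 value was 11.82, 11.49 and 11.46 in control replicates 1, 2 and 3. In LCN13 replicates 5, 6 and 8 it was 11.73, 11.83 and 12.30, and in TSC22D4 replicates 10, 11 and 12 it was 12.38, 12.36 and 12.44. In replicates 13, 14 and 16 of the combined group it was 12.44, 12.42 and 12.59. All 6 arrays with TSC22D4 shRNA therefore lay above all 6 without it, as arrays did in one direction or the other for 1.13% of all genes, and LCN13 replicate 8 came closest to them. The control and LCN13 groups overlapped, and so did the TSC22D4 and combined groups.

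The mean rose from 11.59 ± 0.20 (SD, n = 3) in control to 12.39 ± 0.04 with TSC22D4 shRNA and 12.48 ± 0.09 with both. The log2 difference from control was 0.80 (SE 0.14), a 1.74-fold higher signal, with TSC22D4 shRNA and 0.89 (SE 0.14), or 1.86-fold, with both. With LCN13 shRNA it was 0.36 (SE 0.14), with a mean of 11.96 ± 0.30 and replicate 8 the highest. Without LCN13 replicates 5 and 6 that difference was 0.71, from the 1 LCN13 array left. Averaged over the presence of LCN13 shRNA, the difference with TSC22D4 shRNA was 0.67 (SE 0.10), and 0.49 without LCN13 replicates 5 and 6. The TSC22D4 difference in the presence of LCN13 shRNA minus that in its absence was -0.27 (SE 0.20), and -0.62 without LCN13 replicates 5 and 6. Between TSC22D4 and LCN13 shRNA the difference was 0.44 (SE 0.14), and 0.09 without them.

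Fibroblast and preadipocyte markers, 11 measured of 12, lay between -0.31 and 0.04 in control, between -0.10 and 0.11 in TSC22D4 and between -0.02 and 0.12 in the combined group, relative to their 12-array mean in log2. Control replicates 1 and 3 had the lowest of these means, at -0.13 and -0.31, while Tuba1a differed by 0.36 between those 2 arrays. Proliferation markers, 9 measured of 10, lay between -0.17 and 0.18 in control, 0.01 and 0.27 in TSC22D4 and -0.07 and 0.13 in the combined group, ranges that overlap. Their part in the Tuba1a difference was not tested.

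Tuba1c, a further widely made alpha-tubulin, had a dim probe set and lay slightly lower with both shRNAs. Control replicates 1, 2 and 3 read 6.59, 6.49 and 6.57, and replicates 13, 14 and 16 of the combined group read 6.32, 6.40 and 6.36, without overlap. The LCN13 arrays lay between 6.42 and 6.49 and the TSC22D4 arrays between 6.47 and 6.50. The combined group also lay wholly below both single shRNA groups. The log2 difference from control was -0.19 (SE 0.03) with both shRNAs, -0.10 with LCN13 and -0.07 with TSC22D4 shRNA, so Tuba1a and its neighbour differed in opposite directions on the same arrays. These values lie close to the table's median of 6.31. Alpha-tubulin transcripts are alike in sequence, so the signals of Tuba1a and Tuba1c, and of other tubulins, may come in part from a related gene, which was not tested.

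Tuba4a, an alpha-tubulin whose encoded tail already lacks the final tyrosine and which is prominent in platelets, muscle and brain, was highest with LCN13 shRNA alone. It read 7.70, 7.71 and 7.58 in LCN13 replicates 5, 6 and 8, above every other array. Control arrays lay between 7.24 and 7.44, TSC22D4 arrays between 7.05 and 7.23, and the combined group between 6.91 and 7.39. The control and TSC22D4 groups did not overlap, by a gap smaller than either group's range. Relative to control the log2 difference was 0.31 (SE 0.11) with LCN13, -0.20 (SE 0.11) with TSC22D4 and -0.19 with both. From LCN13 to TSC22D4 it was -0.51 (SE 0.11), and -0.42 without LCN13 replicates 5 and 6.

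**Figure D1:**
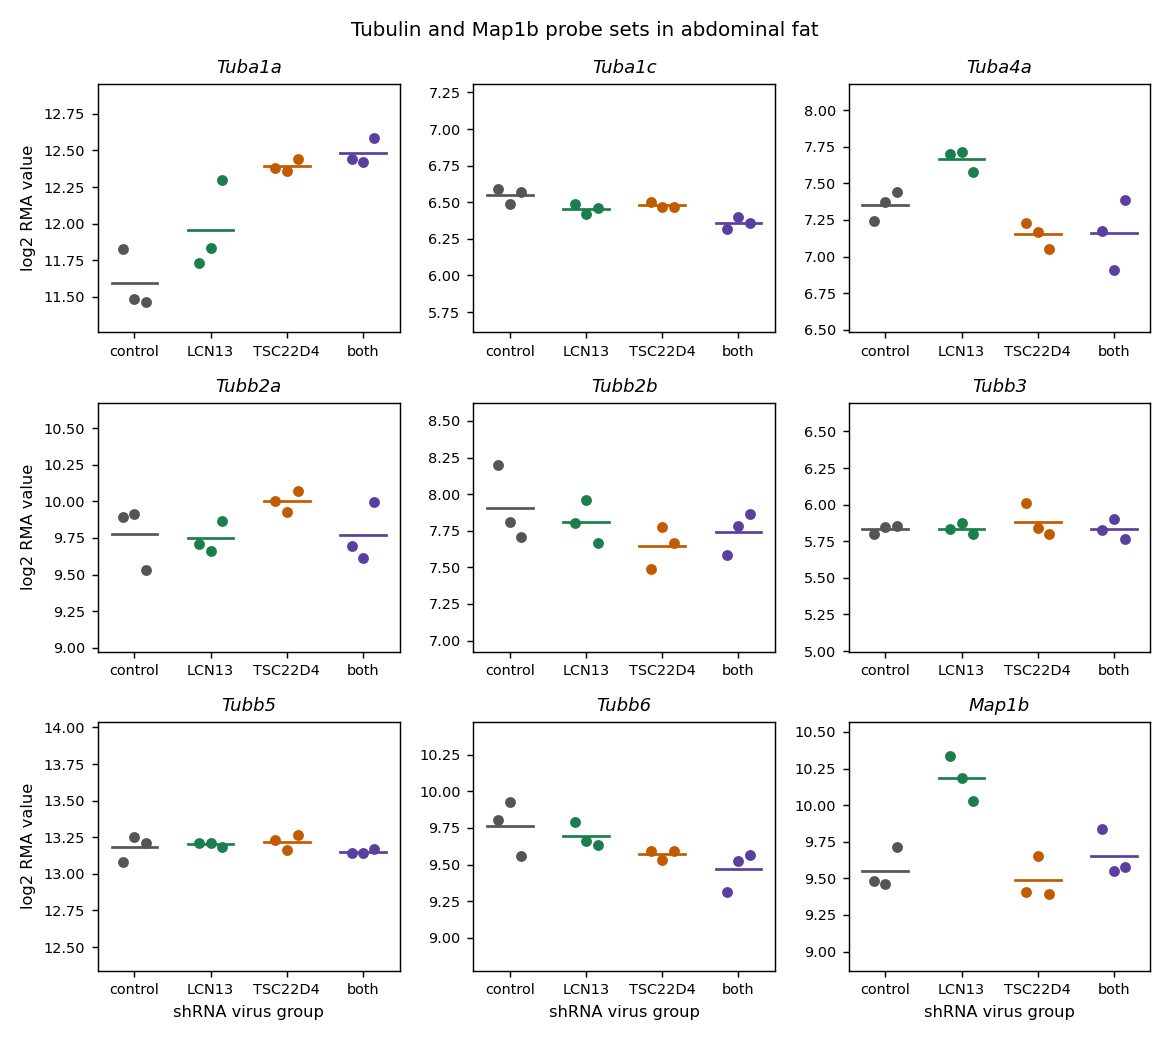
Log2 RMA value (y axis, each panel spanning 1.7 log2) of 9 probe sets in the 4 shRNA virus groups (x axis), with 1 point per array and a line at each mean of 3 arrays. Tuba1a is higher in all 6 arrays with TSC22D4 shRNA, Map1b and Tuba4a are highest in the 3 LCN13 arrays, and Tubb5 stays between 13.08 and 13.27.

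The 5 beta-tubulins showed no group difference that all of them shared. Tubb5, the beta-tubulin made in most cell types, was the steadiest. It lay between 13.08 and 13.27 on all 12 arrays, with differences from control between -0.03 and 0.04 (SE 0.04 each). Tubb2a, a beta-tubulin of brain and other tissues, had means of 9.78 ± 0.22 in control, 9.75 ± 0.11 with LCN13, 10.00 ± 0.07 with TSC22D4 and 9.77 ± 0.20 with both shRNAs. Its 3 TSC22D4 arrays (10.01, 9.93 and 10.07) lay above all control and LCN13 arrays, while the combined group, which ran from 9.61 to 10.00, overlapped them.

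Its neighbour Tubb2b, a beta-tubulin known from developing neurons, overlapped in all groups. The means were 7.91 ± 0.26 in control, 7.81 ± 0.15 with LCN13, 7.64 ± 0.14 with TSC22D4 and 7.74 ± 0.14 with both. Tubb6, a beta-tubulin found widely outside the brain, was lowest in the combined group, at 9.31, 9.53 and 9.56, against 9.81, 9.93 and 9.56 in control, where 1 array reached the combined range. Its log2 difference from control was -0.30 (SE 0.09) with both shRNAs, -0.19 (SE 0.09) with TSC22D4 and -0.07 with LCN13. Tubb3, the beta-tubulin of neurons, gave dim signals from 5.77 to 6.01, with overlapping groups. Of 14 measured markers of neurons and Schwann cells, 12 were below the table's median.

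Map1b, whose product is cut into a heavy and a light chain that bind microtubules and which is best known from growing axons, was higher with LCN13 shRNA alone. It read 10.33, 10.19 and 10.03 in LCN13 replicates 5, 6 and 8. Control arrays read 9.48, 9.46 and 9.71, TSC22D4 arrays 9.41, 9.66 and 9.39, and combined arrays 9.83, 9.55 and 9.58. The 3 LCN13 arrays lay above all 9 others, and the other groups overlapped one another. The mean was 10.18 ± 0.15 (SD, n = 3) with LCN13 shRNA against 9.55 ± 0.14 in control. That is a log2 difference of 0.63 (SE 0.11), or 1.55-fold.

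With TSC22D4 shRNA present, adding LCN13 shRNA gave a difference of 0.17 (SE 0.11), the combined group's 9.65 ± 0.16 against 9.49 ± 0.15. The change of the LCN13 difference with TSC22D4 shRNA was -0.46 (SE 0.16), and -0.31 without LCN13 replicates 5 and 6. From LCN13 to TSC22D4 Map1b fell by 0.70 (SE 0.11) in log2, a 1.62-fold lower signal, and by 0.55 without LCN13 replicates 5 and 6. Mesothelial markers moved with these arrays: their mean was 0.50, 0.51 and -0.14 in LCN13 replicates 5, 6 and 8, against -0.28 to 0.05 in the other groups, with Muc16 and Bnc1 below the table's median. Map1b read 10.03 in LCN13 replicate 8, the array with the low mesothelial mean. Without replicates 5 and 6 the difference from control was 0.48, from that 1 array.

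Markers of smooth muscle and pericytes, all 6 measured and above the table's median, had a mean of 0.20, 0.17 and 0.11 on the LCN13 arrays, against -0.23 to 0.07 in control. It lay between -0.09 and 0.05 on the TSC22D4 arrays and between -0.09 and 0.17 in the combined group, where replicate 16 reached the range of the LCN13 arrays. Des, the muscle intermediate filament gene desmin, rose by 0.36 (SE 0.05, limma adjusted p = 0.00398) with LCN13 shRNA. With TSC22D4 shRNA Des rose by 0.30 (SE 0.05, limma adjusted p = 0.0126). It was the only 1 of the 6 to pass in these comparisons. Its interaction was -0.45 (SE 0.06, limma adjusted p = 0.018). Of the fibroblast markers, Dpp4, a surface marker of fibroblast progenitors, fell by 0.59 (SE 0.10, limma adjusted p = 0.0365) from LCN13 to TSC22D4. It was the only 1 of the 11 to pass, and their median difference was -0.012, with Lum and Col3a1 among those that were higher. Without LCN13 replicates 5 and 6 the Des difference with LCN13 shRNA was 0.31 (limma adjusted p = 0.164) and the Dpp4 difference -0.52 (limma adjusted p = 0.52). The part of the mesothelial, muscle and fibroblast markers in the Map1b difference was not tested.

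**Figure D2:**
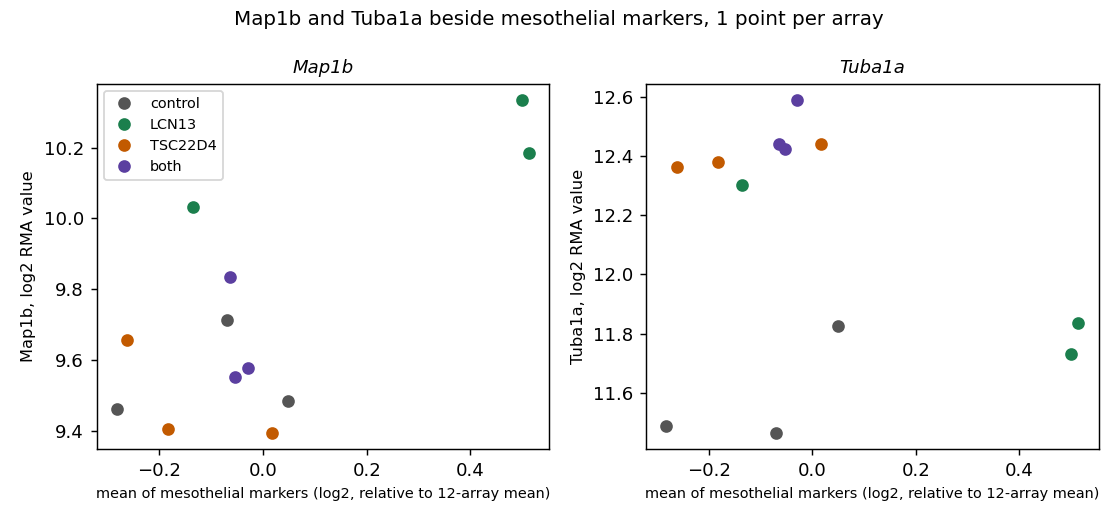
Log2 RMA value of Map1b and Tuba1a (y axes, separate scales) against the mean of 15 mesothelial markers relative to their 12-array mean (x axes, log2), with 1 point per array coloured by group. LCN13 replicates 5 and 6 lie far right at 0.50 and 0.51; the remaining LCN13 array, at -0.14, is above every other group in Map1b and close to the TSC22D4 arrays in Tuba1a.

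Relative to all genes, calls were made with limma over the whole table at a Benjamini-Hochberg adjusted p under 0.05. In that fit 1 of 9 genes, Tuba1a, passed as higher with TSC22D4 shRNA, where 0.293% of all genes passed higher and 0.88% lower. Map1b passed as higher with LCN13 shRNA, where 0.397% of all genes did and 1.04% passed lower. With both shRNAs Tuba1a passed higher and Tuba1c lower, against 0.315% and 1.03% of all genes. Between TSC22D4 and LCN13 shRNA, Map1b passed as lower, as did 0.574% of all genes. For the averaged TSC22D4 effect Tuba1a passed as higher, against 0.561% of all genes higher and 0.832% lower, and the F test over the 4 groups called Tuba1a and Map1b, with 1.61% of all genes. These shares are printed as background, and the members' counts are not read against them because the same differences led to their choice.

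The limma fit called 0 of 9 for the averaged LCN13 effect (1.08% of all genes passed, 3 members at an unadjusted p under 0.05) and 0 for the interaction (0.397%, 1 member). It called 0 between the combined and TSC22D4 groups (0% of all genes, 1 member) and 0 between the combined and LCN13 groups (0.00863%, 5 members). The percentages are at an adjusted p under 0.05. No share of all genes at an unadjusted p was computed, so the member counts cannot be set against them. The median log2 difference over the 9 genes was -0.07 with TSC22D4, 0.00065 with LCN13 and -0.03 with both shRNAs, against -0.0022, 0.0040 and 0.0015 over all genes. Arrays of the 2 groups did not overlap for 3 members with TSC22D4 shRNA (16.6% of all genes), 3 with LCN13 (15.7%) and 2 with both (14.9%), comparisons that share their control arrays. They did not overlap for 1 member between the combined and TSC22D4 groups (14.5%), 6 between the combined and LCN13 groups (16.5%) and 5 between TSC22D4 and LCN13 (25.2%).

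Leaving out 1 array at a time kept the averaged Tuba1a difference past the threshold in 12 of 12 fits. The Tuba1a call against control was kept in 5 of 12 such fits with TSC22D4 shRNA and in 7 of 12 with both. It was lost without control replicate 2 or 3 and without any array of the shRNA group compared, and with TSC22D4 shRNA also without combined replicate 13 or 14. Tuba1c kept its call in 9 of 12 fits, losing it without control replicate 3 or combined replicate 13 or 16. Map1b kept the LCN13 call in 8 of 12, losing it without control replicate 1 or 2 or LCN13 replicate 5 or 6. The Map1b call between TSC22D4 and LCN13 shRNA was kept in 7 of 12 fits, and was lost without LCN13 replicate 5 or 6 or any TSC22D4 array. In the fits that lost it, only 2 to 8 of all genes passed in that comparison, against 239 with all 12 arrays. The loss was therefore shared by nearly all genes called there. These fits describe how far the calls rest on single arrays. They are not support, since the genes were chosen with the differences known. The fit without LCN13 replicates 5 and 6 together is given with the processing below.

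**Figure D3:**
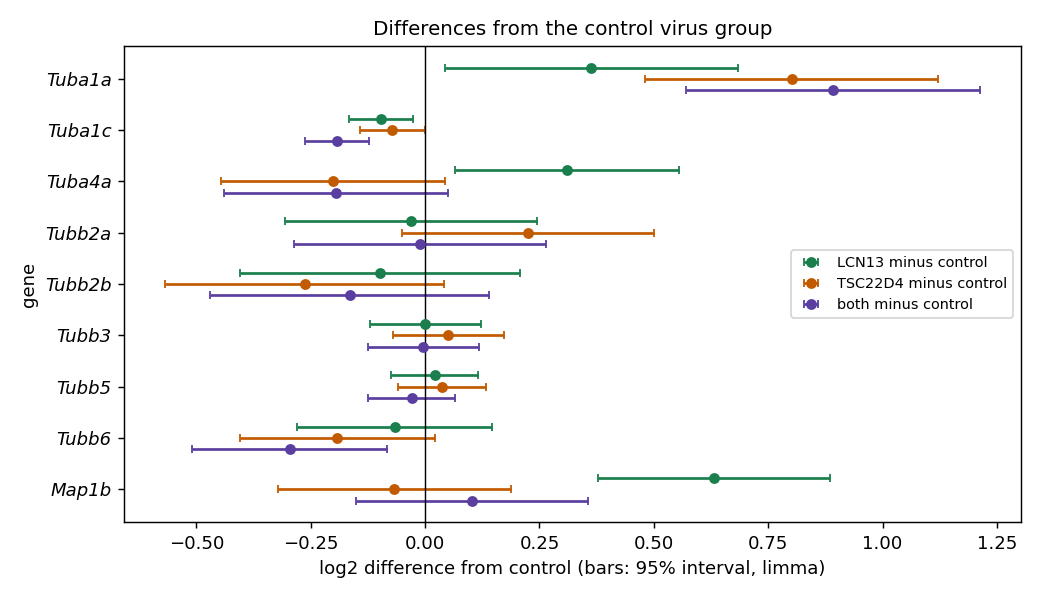
Log2 difference from the control virus group (x axis) for 9 genes (y axis) in the 3 other groups, with 95% intervals from limma over 12 arrays, 3 per group. Tuba1a lies right of 0 in the 3 comparisons, at 0.36, 0.80 and 0.89, and Map1b stands off only with LCN13 shRNA, at 0.63.

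Whether the genes also vary together among animals of 1 group was not used in their choice, so it was tested. With values centred on their group mean, 36 pairs of genes were correlated over 12 arrays, with an exact two-sided permutation test of arrays within groups (1296 arrangements). After Benjamini-Hochberg adjustment 0 of 36 pairs passed, the lowest adjusted p being 0.643, and 1 pair had an unadjusted p under 0.05. That pair was Tuba1a with Tubb3, at Pearson r = -0.41 (exact permutation p = 0.0378) and Spearman rho = -0.55 (exact permutation p = 0.017). Without the 2 arrays farthest from the median of Tuba1a, r was -0.43 (exact permutation p = 0.257). Tuba1a and Tubb2a had r = 0.60 (exact permutation p = 0.0625) and rho = 0.63 (exact permutation p = 0.0887), and 14 of 36 correlations were positive.

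The search for similar profiles covered 17339 other protein-coding genes, with predicted or clone-type names and chemosensory receptors left out. Among these 17339 the ones closest to Tuba1a over the 12 arrays were Pank3, a pantothenate kinase of coenzyme A synthesis (r = 0.95), the aldo-keto reductase gene Akr1e1 (0.94), the vitamin K epoxide reductase gene Vkorc1 (0.94), Mob1b of the Hippo pathway (0.93) and the mitochondrial carrier gene Slc25a16 (0.93). Closest to Map1b were Bola1 (r = 0.94), the Polycomb cofactor gene Jarid2 (0.92), the transcription factor gene Klf5 (0.91), the RNA-binding protein gene Rbms1 (0.91) and the chromatin remodeller gene Chd8 (0.91). None of these is a tubulin, and Klf5 was dim, between 6.18 and 6.35 on the 12 arrays. The correlations span the 4 groups, were picked as the highest and are a description only.

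Other genes that make, fold, modify, bind or move along microtubules were tested as 7 lists, with 131 of 135 genes measured. The limma fit called 3 different genes over the 9 comparisons, 1 in a comparison at most. The share of all genes called in any of the 9 was not computed. With TSC22D4 shRNA 1 of 131 passed lower (0.763%) and 0 higher, against 0.88% and 0.293% of all genes. With LCN13 shRNA 1 passed higher and 0 lower, against 0.397% and 1.04% of all genes. With both 0 passed, against 0.315% of all genes higher and 1.03% lower, and 15 had an unadjusted p under 0.05. The share of all genes at that unadjusted threshold was not computed. Between TSC22D4 and LCN13 shRNA 1 of 131 passed lower (0.763%), against 0.574% of all genes. For the averaged TSC22D4 effect 1 passed lower (0.763%), against 0.832% of all genes. The F test called 1 of 131, against 1.61% of all genes. The median log2 difference of the 131 genes from control was 0.0040 with TSC22D4, 0.0070 with LCN13 and 0.02 with both shRNAs.

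Ttc5, which in human cells recognizes nascent tubulin chains on ribosomes and starts the decay of tubulin mRNA, was lower with TSC22D4 shRNA. It read 8.35, 8.16 and 8.19 in control and 7.88, 7.98 and 7.90 in TSC22D4 replicates 10, 11 and 12. In the LCN13 arrays it read 8.09, 8.15 and 8.17, and in the combined group 7.97, 7.99 and 8.07. All 6 arrays with TSC22D4 shRNA lay below all 6 without it, the opposite order from Tuba1a. Such a separation, in one direction or the other, was seen for 1.13% of all genes. Ttc5 fell by 0.31 (SE 0.05, limma adjusted p = 0.0194) from control to TSC22D4 shRNA, and by 0.22 (SE 0.04, limma adjusted p = 0.0238) for the averaged effect. With both shRNAs the difference from control was -0.22 (SE 0.05, limma adjusted p = 0.0847). The adjusted p of the TSC22D4 comparison ran from 0.0132 to 0.134 over 18 alternatives, 13 of which kept the call, and it was lost without TSC22D4 replicate 10 or 12. It was also lost with a trended robust variance, in the fit of only the 6 arrays compared and without LCN13 replicates 5 and 6 (limma adjusted p = 0.0501). The averaged call was kept in 6 of 12 fits without 1 array and lost without LCN13 replicate 5 or 6, TSC22D4 replicate 10 or 12 or combined replicate 13 or 14, with a highest limma adjusted p of 0.0665. With TSC22D4 shRNA the means of Tuba1c, Tuba4a, Tubb2b and Tubb6 were lower than in control, and those of Tubb2a, Tubb3 and Tubb5 higher. A relation of Ttc5 to Tuba1a or to any other tubulin was not tested.

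Ttl, the ligase that puts the final tyrosine back on alpha-tubulin, was lower with TSC22D4 than with LCN13 shRNA. The LCN13 arrays read 8.00, 8.06 and 8.01 and lay above all 9 others, and the TSC22D4 arrays read 7.67, 7.76 and 7.72. The log2 difference between these groups was -0.31 (SE 0.06, limma adjusted p = 0.0401). Against control LCN13 shRNA gave 0.26 (SE 0.06, limma adjusted p = 0.0648). Dclk1, a doublecortin-like kinase that binds microtubules, rose by 0.26 (SE 0.05, limma adjusted p = 0.0392) with LCN13 shRNA, from 9.43 to 9.69. Its arrays read 9.70, 9.74 and 9.64 there against 9.49, 9.39 and 9.42 in control, while TSC22D4 replicates 11 and 12 read 9.66 each. Without LCN13 replicates 5 and 6 the Ttl difference was -0.29 (limma adjusted p = 0.525) and the Dclk1 difference 0.21 (limma adjusted p = 0.426), from 1 LCN13 array. Leaving out 1 array, Ttl kept its call in 5 of 12 fits and lost it without LCN13 replicate 5 or 6, any TSC22D4 array or combined replicate 13 or 14. Without LCN13 replicate 5 or 6 or a TSC22D4 array, only 2 to 8 of all genes passed between TSC22D4 and LCN13. Dclk1 kept its call in 4 of 12 fits, losing it without control replicate 2 or 3, any LCN13 array or any combined array.

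**Figure D4:**
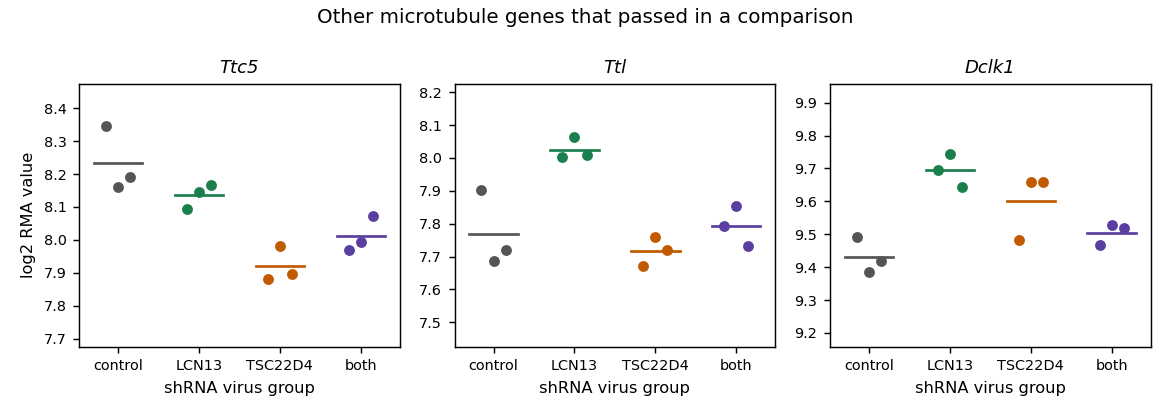
Log2 RMA value (y axes, each spanning 0.8 log2) of Ttc5, Ttl and Dclk1 in the 4 shRNA virus groups (x axis), with 1 point per array and a line at each mean of 3 arrays. Ttc5 lies lower in the 6 arrays with TSC22D4 shRNA, and Ttl is highest in the 3 LCN13 arrays.

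In the 4 lists in which no gene passed a comparison, the gene with the smallest F test p is named. Among 11 other tubulins it was Tubg1, the gamma-tubulin that seeds new microtubules, at 10.29 in control and 10.44 with LCN13 shRNA (difference 0.16, SE 0.04, limma adjusted p = 0.158). Among 31 motor genes it was Kifap3, the cargo-binding subunit of kinesin-2, at 0.17 with LCN13 shRNA (limma adjusted p = 0.111). Among 23 genes for microtubule ends and severing it was Stmn2, a neuronal stathmin that destabilizes microtubules, at 0.31 with LCN13 (limma adjusted p = 0.156) and 0.31 with both shRNAs (limma adjusted p = 0.171). Its values of 6.85, 6.88 and 6.50 in LCN13 replicates 5, 6 and 8 had the same order as the mean of the mesothelial markers there. Stmn2 also lay above all control arrays (6.39 to 6.51) in the TSC22D4 group (6.60 to 6.68) and the combined group (6.68 to 6.78). The mesothelial mean was -0.26 to 0.02 in the TSC22D4 group and -0.06 to -0.03 in the combined group. A relation of Stmn2 to the mesothelial markers was not tested. Among 8 genes of the gamma-tubulin ring complex it was Mzt2, at -0.17 with LCN13 shRNA (limma adjusted p = 0.454).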

How the data were processed

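Abdominal fat RNA of 12 mice (4 groups, 3 arrays each, separate animals per the labels) was measured on biotin-labelled Affymetrix arrays. The authors deposited log2 values for 25206 probe sets, made with RMA per the submitters' processing notes. The version of RMA, the genome build and the probe set definitions were not given in the sources used here. Sorted columns differed by at most 0.00188, so a change shared by most genes would have been removed. The number of arrays limits the precision, and depth does not apply.

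Of the probe sets 23185 carried 1 gene symbol, all matched by gene ID to the GRCm38.p6 RefSeq table, and were tested without a filter. limma 3.58.1 (R 4.3.3) was fitted over the 12 arrays with 1 mean per group. Contrasts were the 6 pairs of groups, both averaged effects and the interaction, with an F test over the groups, two-sided, Benjamini-Hochberg over all genes. The fit was tested on simulated data. Tuba1a and Map1b were set beside the 5 most correlated genes, and other microtubule genes were named if they passed, else 1 per list by smallest F p. Des and Dpp4 were named after their values were seen, as the marker genes that passed. Members, lists and alternatives were chosen with earlier results of these data known. Alternatives were array weights, a trended robust variance, a filter on dim probe sets, all probe sets, only the 2 groups compared and leaving out arrays.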

Additional observations from a re-analysis of the deposited data

How the results depend on the processing

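Under limma fits with other settings the counts of the 9 genes passing stayed small. Fitting only the 6 arrays of the 2 groups left 0 for TSC22D4, LCN13 and both shRNAs against control and for TSC22D4 against LCN13, and 1 other microtubule gene, Ttl, where the fit over 12 arrays gave 3; fewer arrays give fewer degrees of freedom. Over all 23185 genes those 6-array fits called 142, 102, 126 and 75, where the fit over 12 arrays called 272, 333, 311 and 239. With array weights 3 members passed between TSC22D4 and LCN13, 2 for the averaged TSC22D4 and 1 for the averaged LCN13 effect. With these weights 15 other microtubule genes passed. Calls over all genes rose too, to 1178, 810 and 614 in these comparisons, from 239, 323 and 251. With a trended robust variance, and likewise with only genes above the table's median, the counts were 1 for both shRNAs against control, 2 between TSC22D4 and LCN13, 2 for the averaged TSC22D4 and 1 for the averaged LCN13 effect. In the same comparisons the trended robust variance called 299, 222, 363 and 218 of all 23185 genes. The filter called 335, 300, 459 and 261 of 11938. The other microtubule genes passing were 0 with the trended robust variance and 5 with the filter, so Ttc5, Ttl and Dclk1 lost their calls with the trended robust variance. Testing every probe set changed none of these counts. Without LCN13 replicates 5 and 6, 0 members passed for LCN13 against control, TSC22D4 against LCN13 and the averaged TSC22D4 effect, 1 passed the F test and 1 other microtubule gene passed, which was Stmn2; a single LCN13 array then remained. The cause of these changes was not otherwise tested.

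Leaving out 1 array at a time, the counts ran from 0 to 1 for TSC22D4 and for LCN13 against control, from 0 to 2 for both against control, from 0 to 2 between TSC22D4 and LCN13, and from 0 to 1 between both and LCN13. They ran from 1 to 2 for the averaged TSC22D4 effect, from 0 to 1 for the averaged LCN13 effect, from 0 to 2 for the F test and from 1 to 8 for the other microtubule genes. The interaction and the comparison of both with TSC22D4 stayed at 0, as did the correlated pairs, also with Spearman's rho and without the 2 farthest arrays. With arrays left out, too few arrangements remain for a single pair to pass after adjustment. The 0 pairs in those settings therefore do not show that the result is stable. Of the members' log2 differences under alternatives, 1412 moved by less than 1 residual SD and 10 by more, and no called one changed sign. Many of the 1412 could not move. A changed variance model, a filter or an array left out of a group not compared leaves a difference of group means unchanged. The 10 were differences of Tuba1a and Map1b without LCN13 replicates 5 and 6, and of Tuba1c with array weights. No paired analysis was possible because the groups share no replicate numbers. Signal over background limits Tubb3, whose values all lay below the table's median.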
